A study of Mus musculus with 18 samples.

Results

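The comparison described here sets ganglia taken after dorsal column axotomy against ganglia taken after laminectomy alone. Its members are the 6 samples that the labels name DCA or LAM, 3 in each group, of the 18 samples of the series, with all 15730 genes of the deposited count table. In the DCA group the dorsal columns of the spinal cord were injured. In the LAM group only the bone over the cord was removed, so the LAM samples carry the opening of the spine that the DCA samples carry too. Every sample came from C57BL/6 mice 6 to 8 weeks old, held the sciatic dorsal root ganglia of 2 mice pooled, and was collected 24 hours after surgery. Sciatic nerve injury is used for comparison: SNA_Saline, in which the sciatic nerve was injured in the presence of saline, and Sham_Saline, the sham procedure with saline, with 3 samples each. The remaining groups, SNA_NAC (sciatic nerve injury with 30 mM N-acetyl-cysteine, an antioxidant) and Sham_H2O2 (sham with 13 mM hydrogen peroxide), enter only the shared estimate of the spread and the levels by group. No genotype, transgene or sex is given in the labels. The samples of a group are separate pools of animals, and each p-value measures the spread between such pools.

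Neurons of the dorsal root ganglia each send out a single axon that divides. One branch runs out in a peripheral nerve such as the sciatic nerve, and in many of these neurons the other climbs toward the brain in the dorsal columns. Cutting the peripheral branch is known to switch on a broad growth programme in the cell body, with transcription factors such as Atf3, Jun and Sox11 and growth-associated proteins such as Gap43, whereas cutting the central branch is known to evoke little of it. A ganglion also holds satellite glia that wrap the cell bodies, Schwann cells, macrophages, fibroblasts and vessels, and RNA of whole ganglia mixes all of them: fewer cells of a type and less RNA per cell cannot be told apart.

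The 6 libraries held 9843129 (LAM replicate 1) to 29572853 (LAM replicate 3) counts. All 9 sensory neuron markers listed were measured, among them Calca, which encodes a pain neuropeptide precursor, at a mean of 1105 FPKM in DCA and 1117 FPKM in LAM, and Isl1, a sensory neuron transcription factor, at 25.0 and 26.8 FPKM (FPKM, the deposited values scaled for transcript length and library size, allow levels of different genes to be compared). One library stood apart. Genes were split by the GC share of their longest transcript into 10 equal groups. In the group with the highest GC share, a median of 59.5%, DCA replicate 3 lay a median 0.79 log2 units above the LAM mean, and in the group with the lowest, at 39.5%, it lay at -0.41. DCA replicate 1 leaned the same way, at 0.33 and -0.14, and LAM replicate 1 the opposite way, at -0.16 and 0.10. DCA replicate 2, at 0.08 and -0.02, lay near zero. The first principal component of the 6 libraries held 56.3% of the variance, with DCA replicate 3 at one end and LAM replicate 1 at the other, and across genes its loadings correlated with GC share at r = -0.69. Values are therefore given as deposited and, where it matters, also after offsets for the GC share and length of each transcript (GC and length offsets) and without DCA replicate 3.

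**Figure D1:**
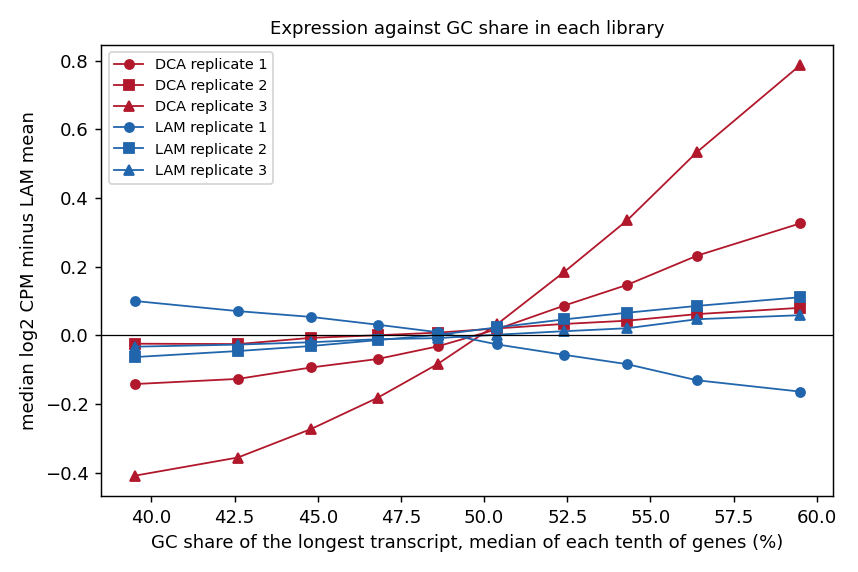
Median log2 CPM relative to the LAM mean (vertical axis) for 10 equal groups of genes ordered by GC share (horizontal axis, median GC in percent), 1 line per library, red for DCA and blue for LAM. DCA replicate 3 runs from -0.41 to 0.79 across the range, and LAM replicate 1 runs the other way from 0.10 to -0.16.

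Laminectomy with and without dorsal column axotomy gave ganglia in which no gene passed the test. At an adjusted p under 0.05 (edgeR quasi-likelihood test, Benjamini-Hochberg over 15730 genes) 0 genes were called, which is 0% of those tested. At an unadjusted p under 0.05 edgeR gave 793 genes, 5.04% of all, of which 527 (3.35%) were higher and 266 (1.69%) lower in DCA. With GC and length offsets the split was 521 higher (3.33%) and 519 lower (3.32%), and without DCA replicate 3 it was 58 higher and 90 lower, or 103 and 198 without LAM replicate 1. The median GC share was 49.6% over all genes, 56.2% in the 527 genes and 45.4% in the 266. DESeq2 called 2 genes (0.0127% of 15729), Atf3 and Etnppl. The interval around the fold changes was narrow for most genes: for 12761 genes, or 81.1%, the 95% interval of the edgeR fit excluded a 2-fold change in either direction. The middle 95% of genes had log2 fold changes between -0.48 and 0.75, and 137 genes reached an absolute log2 fold change of 1. In 1867 genes (11.9%) all DCA samples lay above all LAM samples, and in 1549 (9.85%) all lay below. These 2 shares are the background against which the groups of genes that follow are read.

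Atf3 (ENSMUSG00000026628, chromosome 1, 191170296 to 191218039 in GENCODE M21 on GRCm38), a stress-induced transcription factor widely used to mark axotomised neurons, had the smallest p. Its level, in CPM (counts scaled to a common library size), was 25.0, 39.6 and 28.2 in DCA replicates 1, 2 and 3 and 12.2, 12.4 and 16.9 in the LAM replicates. Every DCA sample lay above every LAM sample, with DCA replicate 2 highest. The group means were 30.9 ± 7.69 and 13.8 ± 2.64 CPM (SD, n = 3 each). The log2 fold change was 1.14 (SE 0.19, 95% interval 0.75 to 1.53, edgeR adjusted p = 0.172). DESeq2 gave an adjusted p of 8.81e-05, within a range of 8.81e-05 to 0.908 over 20 alternative fits, 1 of them under 0.05, while the log2 fold change stayed between 0.93 and 1.32.

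Etnppl (ENSMUSG00000019232, chromosome 3, 130617448 to 130637521) encodes ethanolamine-phosphate phospho-lyase, an enzyme of phospholipid metabolism that is abundant in liver and in astrocytes. Its level was 5.58, 8.37 and 10.8 CPM in DCA and 2.48, 2.01 and 3.46 CPM in LAM, so the lowest DCA sample lay above the highest LAM sample. The log2 fold change was 1.61 (SE 0.28, 95% interval 1.03 to 2.19, edgeR adjusted p = 0.172), and it was 1.35 without DCA replicate 3. DESeq2 gave an adjusted p of 0.00515, within a range of 0.00515 to 1.00 over 19 alternatives of which 3 were under 0.05. Of the other 11 astrocyte or oligodendrocyte markers measured, none had an unadjusted p under 0.05, and the summed level of the 12 was 221 to 278 CPM in DCA and 203 to 208 CPM in LAM. Their part in the Etnppl result was not tested.

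A gene of lipid storage was among those that followed. Plin4, which coats lipid droplets, stood at 4.94, 8.45 and 10.5 CPM in DCA and at 2.48, 2.82 and 2.92 CPM in LAM, a log2 fold change of 1.52 (SE 0.42). DCA replicate 3 was the highest sample, and without it the log2 fold change was 1.25. Dpep1, a membrane dipeptidase, was at 6.11, 6.92 and 9.79 CPM in DCA and at 3.42, 4.45 and 4.03 CPM in LAM, with no overlap and with DCA replicate 3 highest. Its log2 fold change was 0.93 (SE 0.28), and 0.70 without that library. Galnt16, a transferase that starts mucin-type sugar chains, had a log2 fold change of 0.57. The names follow a rule: in each direction, the 12 genes with the smallest p whose mean count reached 50 and whose DCA and LAM samples did not overlap. Other genes it gave on the higher side were Cd3eap (0.57), a subunit of RNA polymerase I, Hvcn1 (0.62), a proton channel, Pola2 (0.55), a subunit of DNA polymerase alpha, Ttll11 (0.40), a tubulin-modifying enzyme, Lrrc3 (0.39) and 9430021M05Rik (0.53). The edgeR adjusted p of each of the 9 genes from Plin4 to 9430021M05Rik was 0.624. With GC and length offsets the log2 fold changes of Lrrc3, Ttll11 and 9430021M05Rik became 0.19, 0.17 and 0.23, those of Galnt16, Cd3eap and Hvcn1 became 0.33, 0.32 and 0.41, and that of Pola2 became 0.61. Without DCA replicate 3 that of Galnt16 was 0.37.

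Of the 12 genes lower in DCA that the rule gave, Pmp2 and Cpa3 had the largest differences. Pmp2 (ENSMUSG00000052468, chromosome 3, 10179851 to 10183929), a fatty acid binding protein of peripheral myelin, stood at 74.4, 52.0 and 49.2 CPM in DCA and at 123, 120 and 92.6 CPM in LAM. No DCA sample reached the lowest LAM sample. The log2 fold change was -0.93 (SE 0.27, 95% interval -1.51 to -0.35, edgeR adjusted p = 0.624), and -0.82 with GC and length offsets or without DCA replicate 3. Cpa3, a carboxypeptidase of mast cell granules, had a log2 fold change of -0.93 too, on 2.41, 2.99 and 2.10 CPM in DCA and 4.45, 4.93 and 4.63 CPM in LAM.

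Stx11, Clec4a3 and Steap4 were lower in DCA under the same rule. Stx11, a syntaxin needed for granule release by lymphocytes, was at 4.26, 4.36 and 4.03 CPM in DCA and at 5.28, 6.72 and 5.74 CPM in LAM, a log2 fold change of -0.50 (SE 0.14). Clec4a3, a lectin receptor of myeloid cells, was at 2.90, 1.62 and 2.10 CPM against 4.04, 3.63 and 4.36 CPM, a log2 fold change of -0.83 (SE 0.28). Steap4, a metalloreductase induced in inflammation, gave the tightest DCA values, 12.3, 12.4 and 12.4 CPM, against 16.0, 18.6 and 14.8 CPM in LAM. The remaining lower genes were Gm26892 (-0.65), B3galt2 (-0.69), a galactosyltransferase, Cstf2t (-0.39), a polyadenylation factor, Rras2 (-0.43), a small GTPase, Irs1 (-0.54), which couples the insulin receptor to its effectors, Hnrnph1 (-0.39), a splicing factor, and Rgs20 (-0.60), a regulator of G-protein signalling. The edgeR adjusted p of all these genes was 0.624. With GC and length offsets B3galt2 stood at -0.45 and Hnrnph1 at -0.20, and without DCA replicate 3 Hnrnph1 stood at -0.26 and Rgs20 at -0.36. Gm26892, Cstf2t, B3galt2, Irs1 and Rgs20, and among the higher genes Plin4, Cd3eap, Hvcn1 and Galnt16, overlap another measured gene on the opposite strand in GENCODE M21, as do Jun, Gadd45a, Flrt3, Cnp, Ctgf, Col5a1, Hcn3, Txnip, Csf1r and Cx3cr1, which are described further on. Whether the counting used strand is not given in the sources used here. Cx3cr1 also overlaps Gorasp1 and Csrnp1 on the same strand, an overlap that counting by strand would not remove.

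**Figure D2:**
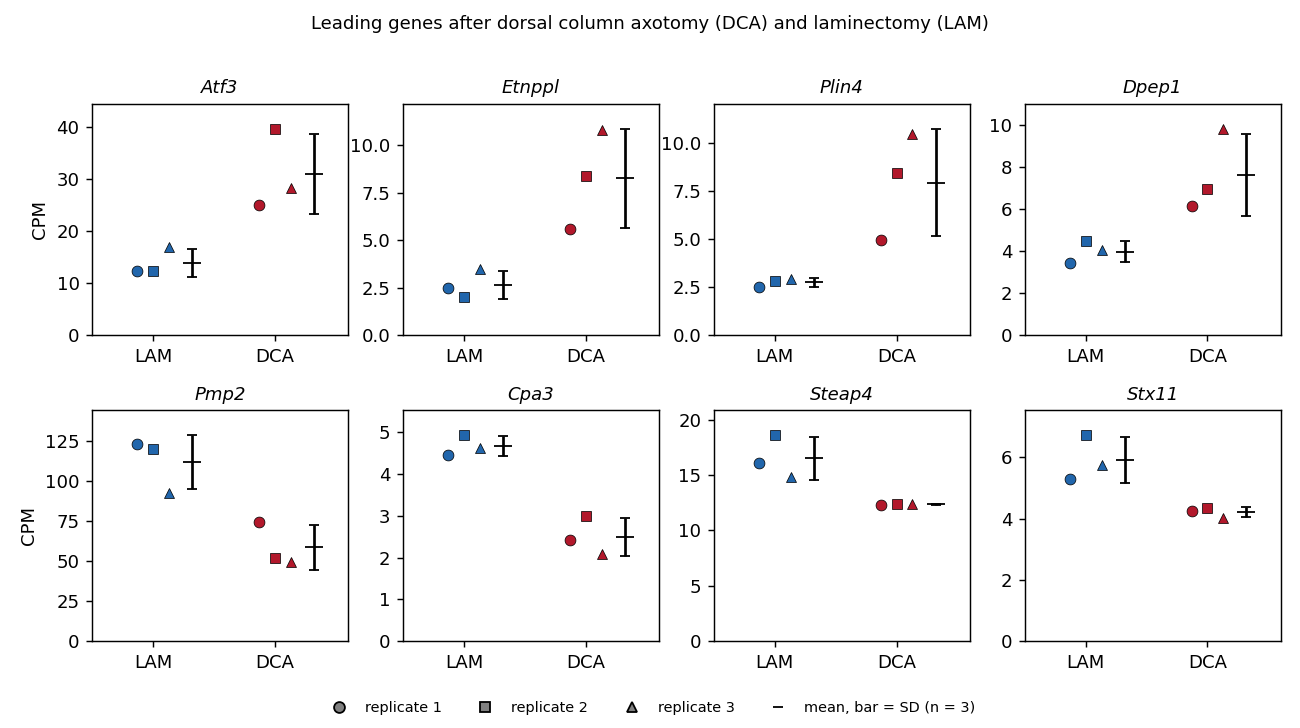
Level in CPM (vertical axis, from 0) of 8 leading genes in each LAM (blue) and DCA (red) replicate, with the mean and SD of n = 3 beside the points. The upper row holds genes with every DCA sample above every LAM sample, such as Atf3 at 25.0 to 39.6 against 12.2 to 16.9 CPM, and the lower row genes with every DCA sample below.

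As a list, the genes known to respond to peripheral nerve injury had few members past the unadjusted threshold. Of 36 such genes 35 were measured, 2 had an unadjusted edgeR p under 0.05 and both were higher (5.71% against 3.35% of all genes), and 6 lay higher with no overlap (17.1% against 11.9%). Their median log2 fold change was 0.13, against -0.00 for all genes, and 0.04 with GC and length offsets. Without DCA replicate 3 it was 0.11, and 3 of the 35 were higher at that threshold, against 58 of all 15730 genes. The 2 genes that passed with all libraries were Atf3 and Stmn4, a microtubule-destabilising protein of neurons. Stmn4 was at 25.4, 21.4 and 28.0 CPM in DCA and at 15.9, 19.5 and 19.0 CPM in LAM, a log2 fold change of 0.46 (SE 0.16).

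Several well-known regulators had overlapping samples and narrow intervals. Jun, the partner of Atf3 in dimers, was at 70.1, 71.4 and 58.8 CPM in DCA and at 61.1, 67.0 and 75.0 CPM in LAM, with interleaved samples. Its log2 fold change was -0.02 (SE 0.12, 95% interval -0.28 to 0.23). Gap43, a protein of growing axon tips, was at 220, 201 and 231 CPM against 222, 219 and 226 CPM, a log2 fold change of -0.03 with an interval of -0.29 to 0.22. Its samples interleaved too. Gadd45a, a stress response protein, was at 35.5, 36.5 and 32.3 CPM against 34.5, 29.1 and 31.5 CPM, with an interval of -0.14 to 0.41. Csf1, the macrophage growth factor that injured neurons release, was at 14.9, 15.3 and 15.9 CPM against 13.3, 16.8 and 15.3 CPM, with an interval of -0.26 to 0.29. These 4 intervals exclude a 2-fold change, and in 24 of the 35 genes the upper bound lay below a doubling.

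The neuropeptide and guidance members had wider intervals. Adcyap1, which encodes the peptide PACAP, had a log2 fold change of -0.16 with an interval of -0.48 to 0.16, and Flrt3, an adhesion protein, 0.12 with an interval of -0.30 to 0.55. The fold change of Gal, the galanin precursor, was 0.22 with an SE of 0.25, and that of Fst, which binds activins, was -0.36 with an SE of 0.17. Bdnf, a neurotrophin, stood at -0.29 (SE 0.14), and Kat2b, a histone acetyltransferase, at -0.18 (SE 0.16). Sox11, a transcription factor of axon growth, was at -0.06 (SE 0.40). Npy had 4 to 21 counts per library and Il6 2 to 11. The Npy interval, -1.22 to 1.41, does not exclude a 2-fold change in either direction. The Il6 interval, -1.54 to 0.70, does not exclude a 2-fold fall but excludes a 2-fold rise. Sprr1a, a small proline-rich protein induced by axotomy, had 90 counts in DCA replicate 1 and 7 to 24 in the other 5 libraries, with an interval of -0.32 to 2.31.

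The same test was applied to the difference between this comparison and sciatic nerve injury, which share no samples. Over all genes, 254 (1.61%) had changes that differed between the injuries at an adjusted p under 0.05 in edgeR, 61 (0.388%) with the more positive change in DCA and 193 (1.23%) with the more negative. With the replicate number, which the labels also give as the sequencing lane, as a block the count was 118. Leaving out single DCA or LAM libraries gave 69 (without DCA replicate 3) to 160, and GC and length offsets gave 726. Leaving out single sciatic or sham libraries, chosen after seeing the data, gave 55 (without SNA_Saline replicate 1), 85 (without SNA_Saline replicate 2), 89 (without Sham_Saline replicate 2), 528 (without SNA_Saline replicate 3) and 4600 (without Sham_Saline replicate 1), so the count over all genes rests on single libraries. Of the 35 nerve injury genes 24 rose after sciatic nerve injury (edgeR adjusted p under 0.05). The median sciatic log2 fold change of all 35 was 1.36. In each of the 24 the sciatic estimate lay above the whole 95% interval of the dorsal column fold change. That is a description only: the 24 were picked by their sciatic values, and the spread of the sciatic estimate is left out. The test of the difference passed in 16 of the 35 genes, all with the smaller change in DCA. It passed in 15 with the block, in 23 with GC and length offsets and in 12 without DCA replicate 3. With single sciatic or sham libraries left out it passed in 11 to 20 of the 35.

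Atf3 was one of the 16. It rose by a log2 fold change of 2.82 after sciatic injury, to 444 ± 21.5 CPM (SD, n = 3), and the dorsal column change was smaller by 1.69 log2 units (SE 0.25, edgeR adjusted p = 0.00229). Without single sciatic or sham libraries that difference was -1.81 to -1.61, with edgeR adjusted p-values of 0.00247 to 0.0098. The changes of Gadd45a differed by 2.39 log2 units, those of Flrt3 by 2.34 and those of Jun by 1.18, each smaller after dorsal column axotomy (edgeR adjusted p = 6.97e-06, 0.000498 and 0.00155). For Sprr1a, Gal and Sox11 the difference did not pass (edgeR adjusted p = 0.133, 0.0957 and 0.0574).

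**Figure D3:**
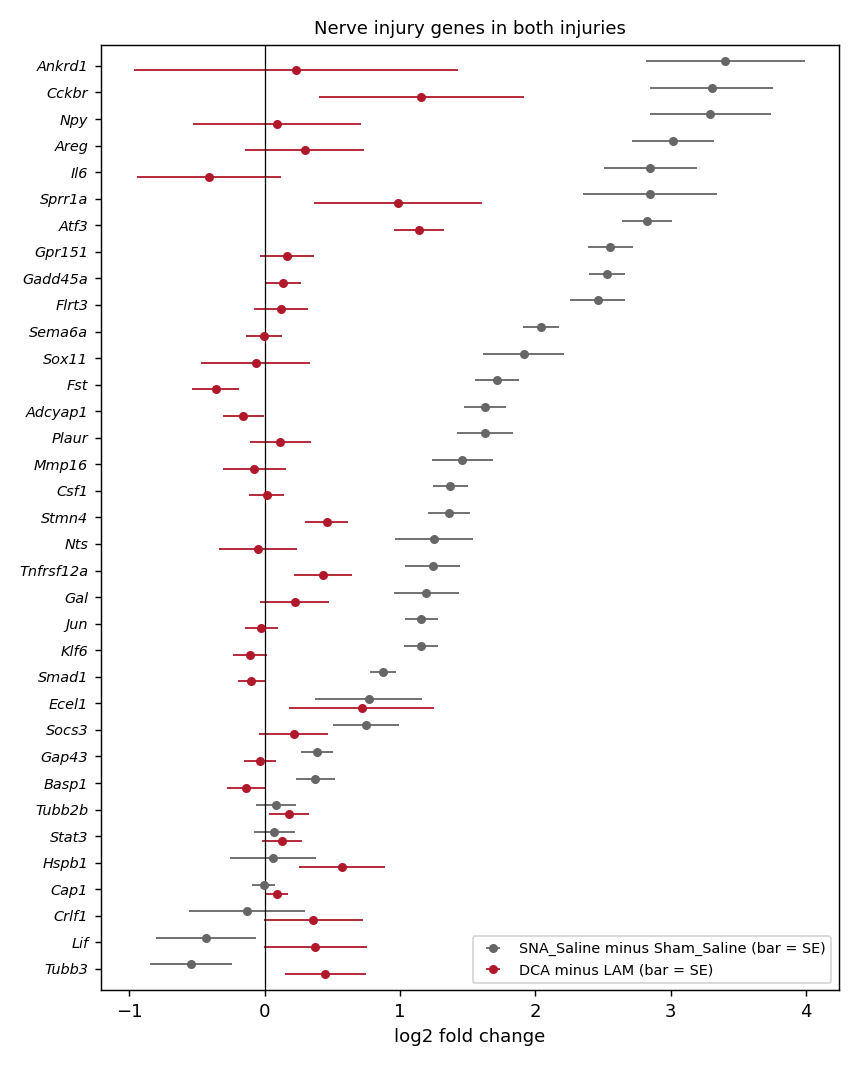
Log2 fold change with its SE (horizontal axis) of the 35 measured nerve injury genes, red for DCA against LAM and grey for SNA_Saline against Sham_Saline, ordered by the sciatic value. The dorsal column values centre on a median of 0.13 and the sciatic values on 1.36; Atf3, at 1.14, has the smallest p in DCA against LAM.

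Genes that sciatic injury changed lay mostly on the other side of 0 after dorsal column axotomy. Of the 340 genes (2.16% of those tested) that rose after sciatic injury in edgeR, 100 had a dorsal column log2 fold change above 0 and 240 below, with a median of -0.09. Of the 90 (0.572%) that fell, 76 lay above 0, with a median of 0.18. Over all genes tested, 7774 of 15730 lay above 0. Across all genes, which are not independent replicates, the log2 fold changes of the 2 comparisons correlated at r = -0.58, and at -0.36 with GC and length offsets. GC share moved with this relation: Sham_Saline replicate 2 had the steepest GC slope of the 18 libraries and DCA replicate 3 a slope of the same sign. Without Sham_Saline replicate 2 the correlation was -0.33, and 119 of 206 genes that rose after sciatic injury lay below 0. The part of GC in the relation beyond the offsets was not tested.

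The macrophage, interferon and chemokine lists had their members mostly on the low side. The complement and neutrophil lists did not as deposited, but their medians moved down with GC and length offsets and without DCA replicate 3. Of 19 complement and MHC class II genes, which serve opsonisation and antigen presentation, 9 lay above 0. Their median was -0.03, -0.14 with GC and length offsets and -0.145 without DCA replicate 3. At an unadjusted edgeR p under 0.05, 1 was lower (5.26% against 1.69% of all genes), and 4 with offsets (3.32% of all genes in that fit). With no overlap 1 was lower (5.26% against 9.85%), and 5 with offsets (1391 of 15648 genes in that fit). Of 19 neutrophil and red cell genes 10 lay above 0, with a median of 0.08. It was -0.09 with offsets and -0.10 without DCA replicate 3. Of 23 macrophage genes 5 had an unadjusted edgeR p under 0.05, all lower in DCA (background 1.69%), and the median was -0.21, or -0.25 with GC and length offsets and -0.26 without DCA replicate 3. Ccr2, the chemokine receptor of monocytes, was at 15.5, 10.8 and 9.15 CPM in DCA and at 17.6, 18.9 and 21.1 CPM in LAM, a log2 fold change of -0.70 (SE 0.27). Ptprc, the common leukocyte antigen CD45, was at 9.05, 7.43 and 7.17 CPM against 11.0, 11.6 and 14.5 CPM, a log2 fold change of -0.65 (SE 0.26). Neither gene overlapped between the groups. Ctss, a lysosomal protease, Itgam, an integrin of myeloid cells, and Mrc1, the mannose receptor of resident macrophages, had log2 fold changes of -0.58, -0.52 and -0.43. Without DCA replicate 3, 0 of the 23 had an unadjusted edgeR p under 0.05. In that fit few genes passed at all, 58 higher and 90 lower of 15730. The summed macrophage level overlapped, at 271 to 347 CPM in DCA and 307 to 409 CPM in LAM, and the defining markers Aif1, Cx3cr1 and Csf1r had log2 fold changes of -0.33, -0.11 and 0.08.

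Interferon-stimulated genes, which cells switch on against viruses, gave 5 of 24 with an unadjusted edgeR p under 0.05, all lower (1.69% of all genes), and 8 lower with no overlap (9.85%), with a median of -0.26. Oas2, a sensor enzyme for double-stranded RNA, was at 1.92, 1.45 and 1.77 CPM in DCA and at 3.00, 2.60 and 3.49 CPM in LAM, a log2 fold change of -0.81 (SE 0.28). Its relative Oasl2 was at 60.5, 52.9 and 44.6 CPM against 63.5, 69.2 and 68.9 CPM, a log2 fold change of -0.35 (SE 0.15). Ifi44, Gbp2 and Gbp3, the last 2 being interferon-induced GTPases with similar sequences, had log2 fold changes of -0.80, -0.81 and -0.57. In Gbp2 a single sample, LAM replicate 2 at 46.3 CPM, lay far above the other 5, at 14.0 to 22.8 CPM.

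Of 23 chemokine and cytokine genes 4 had an unadjusted edgeR p under 0.05, all lower (17.4% against 1.69% of all genes), and 7 were lower with no overlap (30.4% against 9.85%), with a median of -0.20. Ccl2, which attracts monocytes through Ccr2, was at 1.92, 1.37 and 1.65 CPM in DCA and at 4.14, 3.20 and 2.45 CPM in LAM, on 16 to 73 counts per library. Its log2 fold change was -0.92 (SE 0.26). Cxcl12, a chemokine of stromal cells, was at 27.6, 29.9 and 33.8 CPM against 39.3, 40.9 and 34.9 CPM, a log2 fold change of -0.33 (SE 0.12). Cxcl14 had a log2 fold change of -0.76. The edgeR adjusted p was 0.624 for each of Ccr2, Ptprc, Ctss, Itgam, Mrc1, Oas2, Oasl2, Ifi44, Gbp2, Gbp3, Ccl2, Cxcl12 and Cxcl14. When single DCA or LAM libraries were left out, the interferon median ran from -0.34 to -0.19, the chemokine median from -0.29 to -0.14 and the macrophage median from -0.31 to -0.11, the last without LAM replicate 3. Without DCA replicate 3 the interferon list had 1 and the chemokine list 2 lower genes at an unadjusted edgeR p under 0.05. In that fit 90 of all 15730 genes were lower at this threshold. The changes of Ccl2, Cxcl12 and Oasl2 differed from those after sciatic injury by -1.85, -0.67 and -0.95 log2 units (edgeR adjusted p = 0.0199, 0.0495 and 0.0344).

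**Figure D4:**
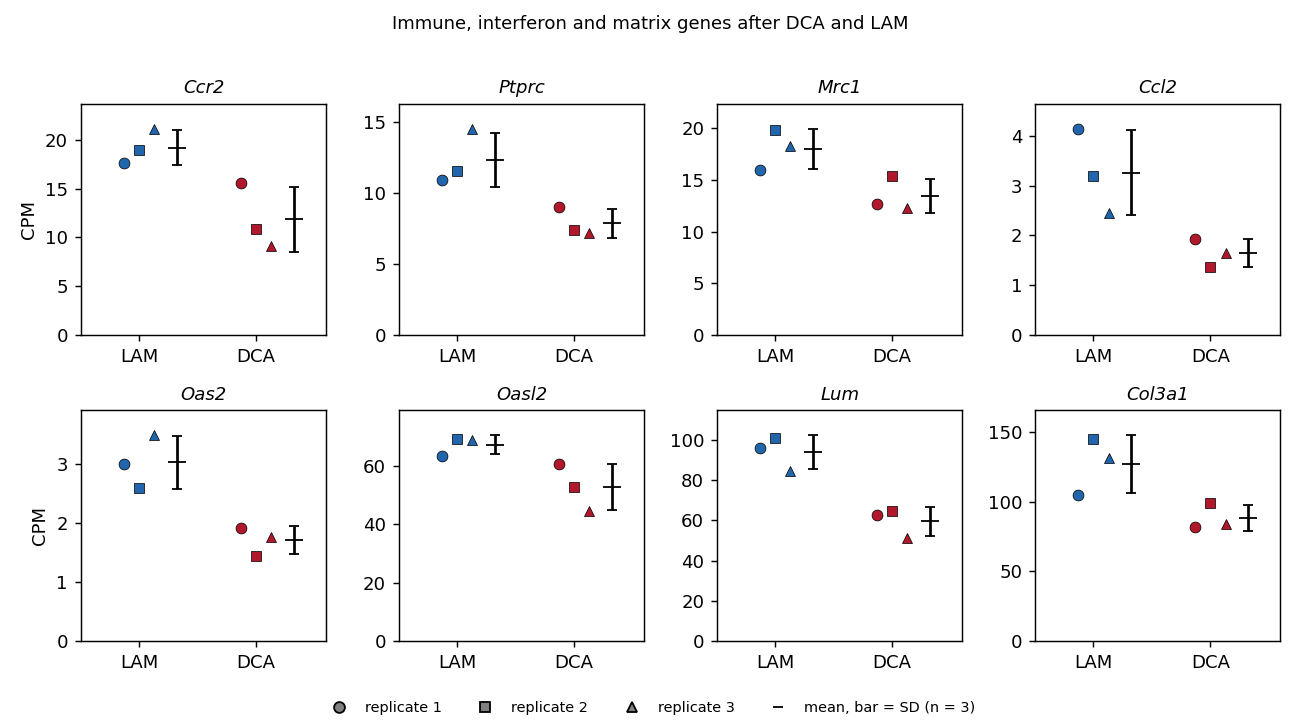
Level in CPM (vertical axis, from 0) of 8 immune and matrix genes in each LAM (blue) and DCA (red) replicate, with the mean and SD of n = 3. In all 8 genes every DCA sample lies below every LAM sample, as for Ccr2 at 9.15 to 15.5 against 17.6 to 21.1 CPM. The 8 were picked from the members of their lists with the smallest p. Such separation held for 5 of 23 macrophage (21.7%), 8 of 24 interferon (33.3%), 7 of 23 chemokine (30.4%) and 6 of 23 matrix genes (26.1%). Over all genes it held for 9.85%. With no overlap, 0, 0, 1 and 1 genes of these lists lay higher, against 11.9% of all genes.

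Matrix and cell cycle lists also had members on the low side. Of 23 fibroblast and matrix genes 5 had an unadjusted edgeR p under 0.05, all lower (21.7% against 1.69% of all genes). Their median was -0.19, and -0.31 with GC and length offsets. Without DCA replicate 3, 2 of the 23 were lower at that threshold, against 90 of all 15730 genes. Lum, a collagen-binding proteoglycan, was at 62.5, 64.5 and 51.4 CPM in DCA and at 95.8, 101 and 84.5 CPM in LAM, a log2 fold change of -0.66 (SE 0.23). Col3a1, a fibrillar collagen, was at 81.5, 99.2 and 84.2 CPM against 104, 145 and 131 CPM, a log2 fold change of -0.53 (SE 0.21). All DCA samples lay below all LAM samples in both. Postn, Col6a3 and Col5a1 had log2 fold changes of -0.49, -0.42 and -0.40, whereas Col1a1 and Col6a1 stood at -0.02 and -0.00. With GC and length offsets, the replicate block and only the 6 samples together, 4 genes had an edgeR adjusted p under 0.05: Etnppl (0.00788), Pmp2 (0.0125), Col3a1 (0.0175) and Igfbp5 (0.0463), a binding protein of insulin-like growth factors that was named after its values were seen. Over all alternatives their adjusted p-values ranged up to 1.00. Of 19 proliferation genes 3 were lower at an unadjusted p under 0.05 (15.8% against 1.69%) and 0 higher, with a median of -0.16, and the examples are Cenpf (-0.85), a kinetochore protein on 0.685 to 1.84 CPM, Rrm2 (-0.53) and Mcm3 (-0.48), both of DNA synthesis. The 24 immediate early genes had a median of -0.14 and 1 member lower at that threshold (4.17% against 1.69%), and with GC and length offsets a median of -0.31 and 5 members lower (3.32% of all genes in that fit).

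The Schwann cell and ribosomal lists leaned to the high side as deposited, and the size of this lean depended on the offsets and on DCA replicate 3. Of 19 Schwann cell and myelin genes 6 had an unadjusted edgeR p under 0.05, all higher (3.35% of all genes), with a median of 0.18. Ncmap, a protein of non-compact myelin, was at 86.2, 90.1 and 112 CPM in DCA and at 59.1, 78.5 and 71.3 CPM in LAM. Cnp, a myelin enzyme, was at 217, 228 and 289 CPM against 166, 218 and 183 CPM, and DCA replicate 3 was the highest sample in both. With offsets or without that library 0 of the 19 had an unadjusted edgeR p under 0.05, and the medians were 0.01 and 0.00. Over all genes, 3.33% were higher at that threshold with offsets, and 58 of 15730 without that library. Ribosomal protein genes, whose many processed copies make their counts uncertain, had a median of 0.25 over 66 genes. Of these, 6 were higher at an unadjusted edgeR p under 0.05 (9.09% against 3.35% of all genes). With no overlap, 3 lay higher (4.55% against 11.9%) and 3 lower (4.55% against 9.85%). With offsets 13 and 5 did so, where 1278 and 1391 of 15648 genes did. Without DCA replicate 3 the median was 0.07, with 0 of the 66 higher at that p threshold, against 58 of all 15730 genes. With GC and length offsets their median was 0.12, with 10 of the 66 higher (3.33% of all genes in that fit). The 20 satellite glia genes had a median of -0.06 and 2 members higher at that threshold (10% against 3.35% of all genes). With no overlap, 2 lay higher (10% against 11.9%) and 4 lower (20% against 9.85%). Among the 2 past the threshold was Sox10 (0.53), a transcription factor of glia. Over 20 alternative fits its log2 fold change ran from 0.0054 to 0.67.

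As deposited, neuronal genes gave few members past the same threshold. None of the 9 sensory neuron markers had an unadjusted edgeR p under 0.05 (median 0.16, and -0.03 with offsets). The same held for 14 sodium channel genes (median 0.00), 18 calcium channel genes (0.20, and 0.00 with offsets) and 14 neuropeptide genes (-0.02). More members than in the background (11.9%) lay higher with no overlap, at 4 of 9 sensory markers (44.4%), 7 of 18 calcium channel genes (38.9%) and 4 of 14 sodium channel genes (28.6%). After GC and length offsets these numbers were 2, 0 and 0, where 1278 of 15648 genes lay higher with no overlap. Potassium channel genes gave 7 of 29 (24.1%) and synaptic vesicle genes 7 of 24 (29.2%), and 6 and 2 with offsets. Axon transport genes gave 7 of 22 (31.8%) and neurofilament and cytoskeleton genes 5 of 24 (20.8%), and 5 each with offsets. The neuropeptide list gave 1 of 14 (7.14%) and neuronal identity factors 1 of 17 (5.88%), and 0 each with offsets. Scn10a, the sodium channel of pain fibres, was at 443, 504 and 468 CPM in DCA and at 422, 416 and 427 CPM in LAM, a log2 fold change of 0.16 (SE 0.14). Of 29 potassium channel genes 1 was higher at an unadjusted edgeR p under 0.05, 3.45% against 3.35% of all genes. It was Hcn3 (0.62, and 0.25 with offsets), a pacemaker channel. Of 26 axon guidance genes 1 was higher and 1 lower, 3.85% each against 3.35% and 1.69%. As deposited, neither list had a count far from the background at this threshold. With GC and length offsets, 3.33% of all genes were higher and 3.32% lower at it. In that fit 4 of 22 axon transport genes were higher and 0 lower. The axon guidance list gave 1 higher and 3 lower, the potassium channel list 0 and 2, and the neuropeptide list 0 and 2. With no overlap, 5 axon guidance genes lay higher (19.2% against 11.9%) and 4 lower (15.4% against 9.85%), and 2 and 5 with offsets. The axon guidance genes past the p threshold as deposited were Slit3, a secreted guidance cue, and Efnb2, an ephrin. Slit3 had 3 to 59 counts per library and a log2 fold change of 1.20 (SE 0.35). Efnb2 stood at -0.29 (SE 0.13).

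Hormone, clock and oxidant lists had 1 or 2 members past the threshold in a direction. Among 28 glucocorticoid-responsive genes, Plin4 was higher and Ctgf, a matricellular growth factor, lower at an unadjusted edgeR p under 0.05 (3.57% each, against 3.35% and 1.69% of all genes), with a median of 0.26 that became 0.04 with offsets. Among 22 clock genes, Per2, a repressor of the circadian clock, was the only such member (4.55% against 1.69%), at 5.99, 6.15 and 4.96 CPM in DCA and at 7.76, 7.70 and 7.72 CPM in LAM, a log2 fold change of -0.44 (SE 0.15). The 29 oxidant defence genes had a median of 0.01 with 2 members higher (6.90% against 3.35%), Gpx3 (0.32), a secreted glutathione peroxidase, and Txnip (0.28), an inhibitor of thioredoxin. None of the 8 genes of the NADPH oxidase complex of phagocytes passed that threshold.

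**Figure D5:**
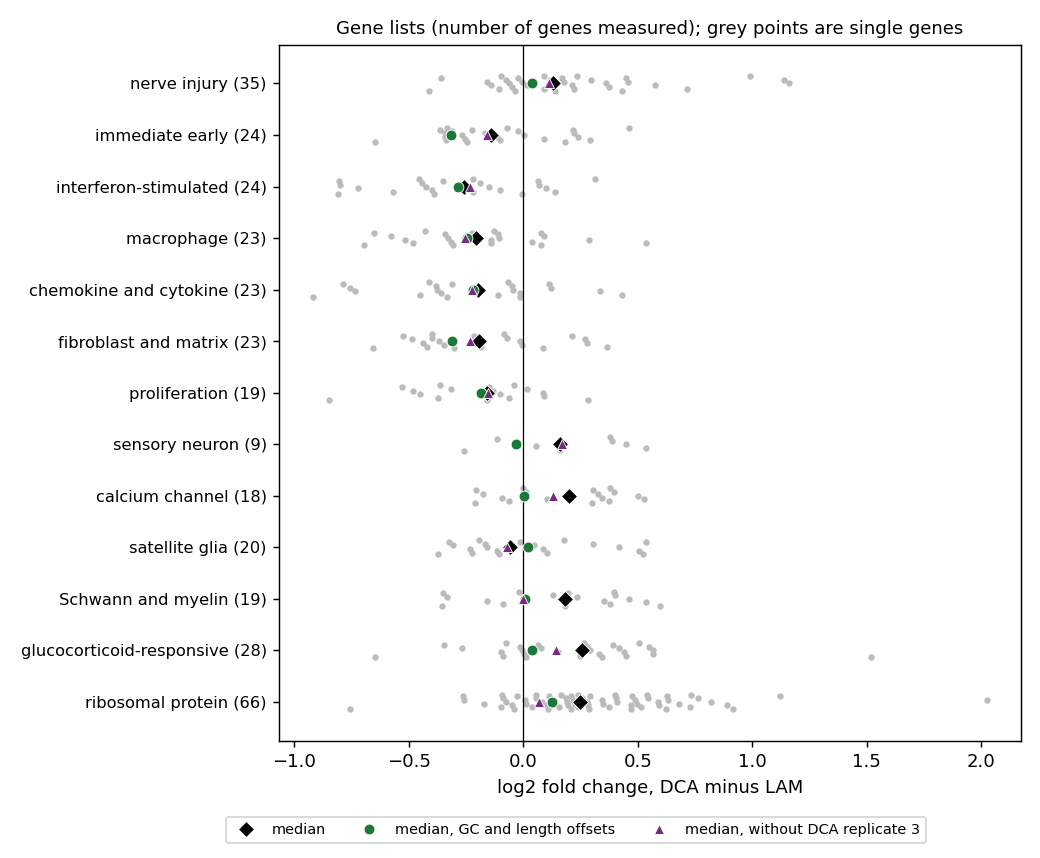
Log2 fold change of DCA against LAM (horizontal axis) for single genes (grey) and list medians (black), with the medians under GC and length offsets (green) and without DCA replicate 3 (purple), for 13 lists (vertical axis). The medians of the interferon (-0.26), macrophage (-0.21) and matrix (-0.19) lists stay below 0 in all 3, while that of the Schwann and myelin list (0.18) moves to 0.01 and 0.00.

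Markers of muscle, blood and fat had few or no members that separated the groups. The summed level of 24 skeletal muscle genes was 383 to 530 CPM in DCA and 228 to 787 CPM in LAM, and that of 19 neutrophil and red cell genes 663 to 1109 and 492 to 1028 CPM. Of these 2 lists and the 10 adipocyte genes, 0 members had an unadjusted edgeR p under 0.05. Of the adipocyte genes 1 was higher and 1 lower with no overlap. Their summed level did not overlap, at 921 to 1170 CPM in DCA and 1235 to 1344 CPM in LAM, most of it Scd1, a fatty acid desaturase that the ganglion also expresses, at 866 to 1103 and 1175 to 1261 CPM. Of the motor neuron markers only Slc5a7 was measured, at 1.17 to 2.13 CPM in DCA and 1.90 to 2.59 CPM in LAM.

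The levels in the other groups place several of these genes. Atf3 averaged 62.6 ± 8.81 CPM (SD, n = 3, as for each group mean here) after the saline sham and 98.8 ± 20.7 CPM after Sham_H2O2, so the DCA mean of 30.9 CPM lay below both, and the LAM mean was the lowest of the 6 groups. For Etnppl the DCA mean of 8.25 ± 2.61 CPM was the highest, and the other groups spanned 1.08 (Sham_H2O2) to 2.65 CPM (LAM). Plin4 was highest in DCA too, at 7.96 ± 2.80 CPM, followed by Sham_Saline at 3.96 ± 2.46 CPM. Pmp2 and Cpa3 were lowest in DCA, at 58.5 ± 13.8 and 2.50 ± 0.453 CPM, and the other groups lay at 96.1 to 138 and 3.96 to 4.79 CPM. Ccr2 and Oas2 showed another order: LAM was highest, at 19.2 ± 1.78 and 3.03 ± 0.446 CPM, while DCA, at 11.8 ± 3.31 and 1.72 ± 0.241 CPM, lay within 1 SD of Sham_Saline at 1.74 ± 0.359 CPM for Oas2 and above it at 8.56 ± 1.82 CPM for Ccr2. These levels across groups are descriptions, and the order of neighbours within 1 SD cannot be told.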

How the data were processed

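RNA of pooled dorsal root ganglia was sequenced single end, 6 libraries per lane on 3 lanes, from a stranded mRNA kit, per the labels' protocols. The deposited values are read counts per gene and FPKM per feature. Per the submitters' processing notes the authors used TopHat2 2.0.12, Bowtie2 2.2.3, SAMtools 0.1.19 and HTSeq 0.6.0 on build mm10, and the deposited counts already lacked rarely read genes (lowest mean 10.1 counts). Reads carry no molecular identifiers, so counts include any PCR copies.

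The counts of all 18 samples were fitted in edgeR 4.0.16 (TMM factors, quasi-likelihood test, 1 mean per group, Benjamini-Hochberg over 15730 genes) under R 4.3.3. CPM, counts scaled to a common library size, use TMM-scaled totals, log2 values a prior count of 2, and SE and intervals come from the fit, whose common biological coefficient of variation was 17.4%. The totals, 9843129 to 29572853 counts in DCA and LAM, set the precision of low genes. DESeq2 1.42.0, limma 3.58.1 on the deposited log2(FPKM + 1) and log2(FPKM + 0.1) values, filters, the replicate block, library totals, offsets for GC share and length (natural splines with 5 degrees of freedom, GENCODE M21, 15648 genes) and leaving out single libraries were alternatives. The scripts were tested on simulated data. An exact permutation test of 3 against 3 samples cannot go below p = 0.1, so none was used for single genes.

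The rule named the 12 genes per direction with the smallest p among those with a mean count of at least 50 and groups that do not overlap, up to 5 members per list, a set of nerve injury genes, and genes that DESeq2 called. Aif1, Cx3cr1, Csf1r, Col1a1, Col6a1 and Igfbp5 stand outside it and were chosen after their values were seen. Calca and Isl1 were printed as markers. Some genes that the rule gave are not reported here. The members and lists were chosen with earlier results of these data known.

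Same-numbered samples share a lane per the labels. Their deviations from the group means correlated at 0.20, -0.23 and 0.23 for numbers 1, 2 and 3.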

Additional observations from a re-analysis of the deposited data

Results flagged for a closer look

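The edgeR test of the difference between the dorsal column and the sciatic change called 254 genes at an adjusted p under 0.05, and each value below is the DCA minus LAM log2 change minus the SNA_Saline minus Sham_Saline log2 change. Groups of 3 were not tested for single samples that lie apart. Among nerve injury genes the difference was -1.69 for Atf3, -1.18 for Jun, -2.39 for Gadd45a, -2.34 for Flrt3 and -1.36 for Csf1. It was -1.79 for Adcyap1, -2.08 for Fst and -1.28 for Bdnf. For Npy and Il6, which had few counts in DCA and LAM, it was -3.20 and -3.26. Of the immune and stromal genes, Ccl2 gave -1.85, Cxcl12 -0.67, Oasl2 -0.95, Stx11 -1.44 and Steap4 -0.98. Rras2, Rgs20 and Cstf2t gave -1.61, -2.10 and -0.74. Plin4 (2.69) and Hvcn1 (1.16) were the genes named in the text whose change was more positive after dorsal column axotomy. The number of genes called moved with single libraries, as described with the comparison.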

How the results depend on the processing

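The edgeR count of 0 genes at an adjusted p under 0.05 held in 17 of 20 alternative fits, including limma and each fit without 1 library (0 to 0), and at an adjusted p under 0.10. It became 2 in DESeq2, 1 with GC and length offsets plus the replicate block, and 4 with both and only the 6 samples. The 527 genes higher at an unadjusted p under 0.05 became 1603 with only the 6 samples, 1768 with the block there, and 985, 1033 and 149 in 3 fits with offsets chosen after seeing the data (only the 6 samples, the block added, or without DCA replicate 3). They became 284 and 314 in limma on log2(FPKM + 1) and log2(FPKM + 0.1), and 58 (without DCA replicate 3) to 1372 (without DCA replicate 2) with 1 library left out, with 103 without LAM replicate 1, 340 without LAM replicate 2 and 269 without LAM replicate 3. The 266 lower genes became 732 and 682 with only the 6 samples, without and with the block, 519 and 499 with offsets, without and with the block, 953 and 1242 with offsets and only the 6 samples, and 90 (without DCA replicate 3) to 381, with 173 without LAM replicate 3. The 254 differences from sciatic injury became 151 with only the 12 samples compared, 118 with the block, 50 with both, 726 and 641 with offsets, without and with the block, 856 and 793 with offsets and only those 12 samples, 1723 in DESeq2, and 55 to 4600 with any 1 library of the 4 groups left out. The counts without overlap ran from 2148 to 4303 higher, and from 1841 to 3988 lower, with 1 library left out, where fewer samples must be separated. The cause of the other shifts was not tested. With the replicate block alone, 0 genes had an edgeR adjusted p under 0.05 in DCA against LAM. Difference calls of single named genes with the block are not given here.

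Of 80 genes named, 14 changed sign under at least 1 alternative (53 of 1582 values). All 14 had intervals that include 0. With GC and length offsets, without and with the block, Sox11 became 0.027 and 0.070, Gal -0.085 and -0.092, Npy -0.15 and -0.11, Csf1 -0.19 and -0.18, and Csf1r -0.13 and -0.12. With offsets and only the 6 samples, without and with the block, Sox11 became 0.022 and 0.10, Gal -0.079 and -0.10, Csf1 -0.19 and -0.19, and Csf1r -0.13 and -0.12. With offsets and without DCA replicate 3, Gal became -0.075, Csf1 -0.11, Csf1r -0.14, Adcyap1 0.058 and Isl1 0.00092. In limma on the 2 FPKM scales Sox11 became 0.021 and 0.13, Col1a1 0.0089 and 0.011, and Col6a1 0.0057 and 0.0044. Csf1 became -0.00071 in DESeq2, Col1a1 0.0012 and Col6a1 0.015 with library totals, and Col6a1 0.0037 with at least 10 counts in every sample. With 1 library left out, Jun ran from -0.11 to 0.061, Sox11 from -0.29 to 0.35, Gap43 from -0.080 to 0.018, Csf1 from -0.076 to 0.077, Flrt3 from -0.11 to 0.30, Npy from -0.55 to 0.81, Il6 from -0.95 to 0.12, Sprr1a from -0.37 to 1.41, Csf1r from -0.036 to 0.16, Col1a1 from -0.19 to 0.083 and Col6a1 from -0.21 to 0.15. Of 41 list medians, 26 changed sign under at least 1 alternative, and 130 of 820 moved by more than the SD between replicates.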
